A study of Mus musculus with 8 samples.

Results

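The sodium-coupled glucose and monocarboxylate transporters of the kidney were examined as a set of 10 genes, Slc5a1, Slc5a2, Slc5a8, Slc5a9, Slc5a10, Slc5a11, Slc5a12, Slc2a2, Slc2a5 and Slc13a3, chosen by name through the symbol paired with each Ensembl gene ID. All 10 were found among the 49315 gene IDs of the count table, and all 10 passed the filter on low counts that left 18485 genes for testing. Messenger RNA had been sequenced from frozen mouse kidney in 4 libraries labelled Control and 4 labelled Conditional Knockout, where the series title names Kdm1a, the gene of the histone demethylase LSD1, as the gene lost. The extraction protocol calls the controls wild type. Strain, age, sex, the Cre driver and the kidney cells in which the allele was deleted are not given in the sources used here, nor is it said whether each library comes from a separate animal, so p-values measure only the spread between these libraries.

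In the kidney most of these transporters take part in returning filtered sugars and organic acids to the blood across the cells of the proximal tubule. Members of the Slc5 family in the brush border use the inward sodium gradient, which the sodium pump Na,K-ATPase maintains, to carry solutes uphill into the cell. Glucose then leaves across the basolateral membrane through the facilitative carrier GLUT2, encoded by Slc2a2. Early and late stretches of the proximal tubule differ in which glucose carrier they use, with Slc5a2 in the early part and Slc5a1 further along.

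Library totals ran from 19524945 to 28544511 counts, and 1 count stood for 0.0346 to 0.0502 counts per 1000000 (CPM) after scaling. Kdm1a itself was at 110 to 120 CPM in the controls and at 90.9 to 95.3 CPM in the knockouts (log2 fold change −0.27, SE 0.05, edgeR adjusted p 0.0194). Summed over 15 proximal tubule markers that include no transporter of the set, the level was 660 to 2540 CPM in controls and 156 to 491 CPM in knockouts. Control replicate 2 was the lowest control and knockout replicate 3 the highest knockout in that sum. Y-linked transcripts were present in 5 libraries and near 0 in control replicate 2 and knockout replicates 1 and 4. The 6 adrenal markers together reached 2518 CPM in the first knockout library, 263 CPM in the fourth and 137 CPM in the fourth control, against 9.83 to 15.1 CPM elsewhere. Six2, a marker of nephron progenitors that the mature kidney has lost, stood at 96.9 to 219 CPM in all 8 libraries.

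Of the 10 genes, 9 fell in the knockout at an edgeR adjusted p under 0.05, and none rose. Among all genes tested, 8.27% were called lower and 6.61% higher. The 10 log2 fold changes had a median of −2.87, against a median of 0.00440 over all genes tested. Mean levels in the knockout were 3.25% to 31.6% of the control mean for the 9 genes that fell. A fall of at least 4-fold was called for 8 of the 10 genes, against 1.48% of genes tested, and one of at least 16-fold for Slc5a8 and Slc5a10, against 0.222%. Slc2a5, the fructose carrier gene, was at 71.6% and was not called. In 8 of the 10 genes all 4 knockout libraries lay below all 4 controls, while 9.58% of all genes tested did so. Because whole kidney was sequenced, fewer proximal tubule cells and less transporter RNA per cell cannot be told apart.

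**Figure D1:**
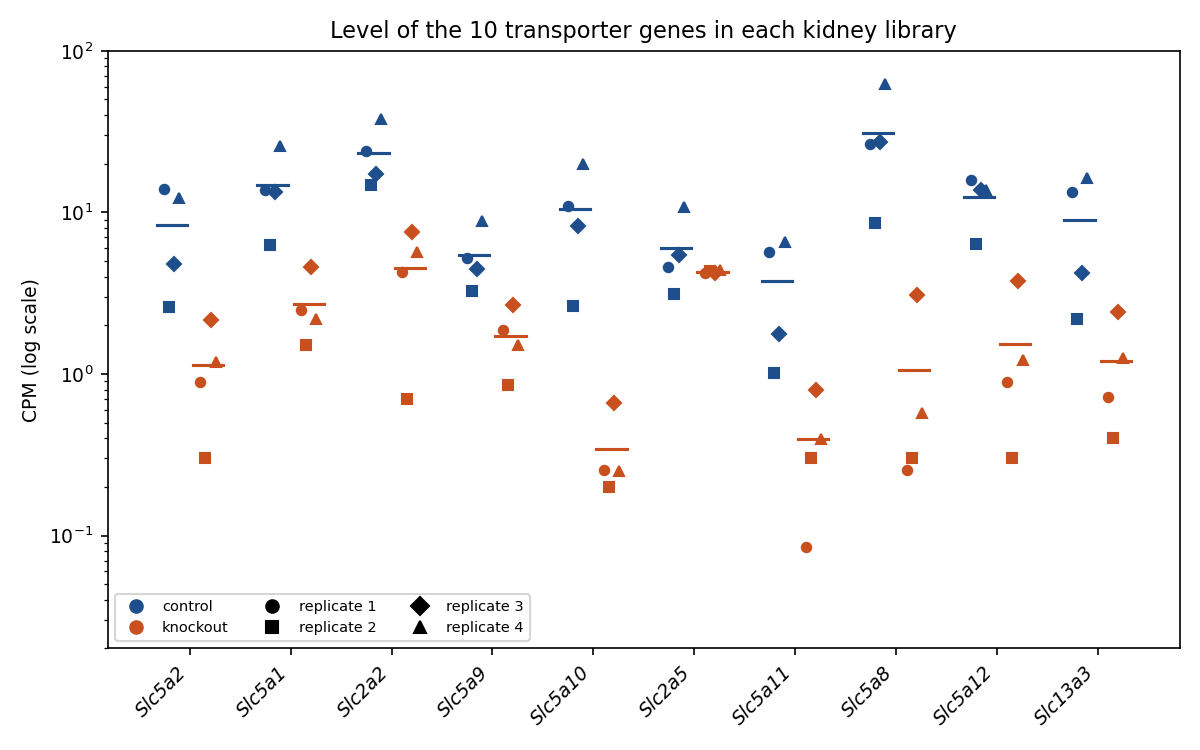
Level of each transporter gene in CPM (log axis) in the 4 control libraries (blue) and the 4 knockout libraries (orange), with the marker shape giving the replicate number and the bar the group mean. The groups are separate for every gene except Slc2a5, where knockouts sit within the range of the controls, and Slc13a3, where knockout replicate 3 at 2.42 CPM is above control replicate 2 at 2.18 CPM.

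The 2 sodium-glucose cotransporters of the brush border were both lower. Slc5a2 encodes SGLT2, the high-capacity carrier that takes up most of the filtered glucose in the early proximal tubule (ENSMUSG00000030781, chromosome 7, 128265657 to 128272430, plus strand, GRCm38). It was at 14.0, 2.60, 4.80 and 12.2 CPM in control replicates 1 to 4 and at 0.887, 0.301, 2.15 and 1.19 CPM in knockout replicates 1 to 4. The groups did not overlap, but the gap between the lowest control, replicate 2, and the highest knockout, replicate 3, was narrow. The fall was −2.86 on the log2 scale (SE 0.64, edgeR adjusted p 0.0260). The gene model of Slc5a2 shares 597 bases with BC017158 on the opposite strand, and strand-aware counting is not stated. BC017158 was at 41.1 CPM in controls and 37.2 CPM in knockouts and was not called (log2 fold change −0.15, adjusted p 0.188). Whether its reads enter the count of Slc5a2 was not tested.

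Slc5a1 encodes SGLT1, the high-affinity carrier that recovers glucose remaining in the late proximal tubule and that also absorbs glucose in the intestine (ENSMUSG00000011034, chromosome 5, 33104219 to 33162870, plus strand). Control replicates 1 to 4 had 13.7, 6.31, 13.3 and 25.6 CPM and knockout replicates 1 to 4 had 2.49, 1.51, 4.60 and 2.19 CPM. Every knockout was below every control, and the controls differed 4.06-fold among themselves. The log2 fold change was −2.43 (SE 0.46, edgeR adjusted p 0.0180).

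Slc2a2 encodes GLUT2, the basolateral exit route for reabsorbed and newly made glucose (ENSMUSG00000027690, chromosome 3, 28697903 to 28731359, plus strand). Its levels were 23.8, 14.8, 17.3 and 37.8 CPM in control replicates 1 to 4 and 4.27, 0.703, 7.54 and 5.65 CPM in knockout replicates 1 to 4. Knockout replicate 2 was far under the other 3 knockouts, which themselves were under every control. The fall was −2.35 (SE 0.56, edgeR adjusted p 0.0286). Knockout means of the entry and exit carriers of glucose were 13.4% of the control mean for Slc5a2, 18.3% for Slc5a1 and 19.4% for Slc2a2.

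The carriers of other sugars and of inositol were spread more widely. Slc5a9 encodes SGLT4, a sodium-coupled carrier of mannose and related sugars (ENSMUSG00000028544, chromosome 4, 111875375 to 111902918, minus strand). It had 5.24, 3.25, 4.44 and 8.86 CPM in control replicates 1 to 4 and 1.86, 0.853, 2.66 and 1.51 CPM in knockout replicates 1 to 4. The groups were separate, and the fall of −1.65 (SE 0.39, edgeR adjusted p 0.0289) was the smallest of the 9 that were called. Slc5a11 encodes SMIT2, a sodium-coupled myo-inositol carrier (ENSMUSG00000030769, chromosome 7, 123214780 to 123273253, plus strand). It had 5.65, 1.02, 1.78 and 6.59 CPM in control replicates 1 to 4 and 0.0845, 0.301, 0.796 and 0.396 CPM in knockout replicates 1 to 4. Control replicate 2 and knockout replicate 3 were again the nearest pair, and the lowest knockout value rested on 2 counts. The change was −3.20 (SE 0.72, edgeR adjusted p 0.0262).

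Slc5a10, which encodes the sodium-coupled fructose and mannose carrier SGLT5, fell about as far as Slc5a8 (ENSMUSG00000042371, chromosome 11, 61672781 to 61720826, minus strand). It was at 11.0, 2.64, 8.27 and 20.0 CPM in control replicates 1 to 4 and at 0.253, 0.201, 0.657 and 0.252 CPM in knockout replicates 1 to 4. All knockouts were below 1 CPM and their counts numbered 6, 4, 19 and 7, against 57 to 440 in the controls. The log2 fold change was −4.88 (SE 0.66, edgeR adjusted p 0.00863), the 23rd lowest of the 18485 genes tested. The order of Slc5a10 and Slc5a8 (−4.81, SE 0.85) was not settled, since with limma-voom Slc5a8 was the lower, at −5.68 against −5.03. Fam83g shares 393 exon bases with Slc5a10 on the opposite strand and Grap shares 4, and neither was called (log2 fold changes −0.33 and −0.44, adjusted p 0.199 and 0.230).

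Slc2a5 encodes GLUT5, the facilitative fructose carrier, and it alone of the 10 was not called (ENSMUSG00000028976, chromosome 4, 150119283 to 150144169, plus strand). Control replicates 1 to 4 had 4.59, 3.11, 5.41 and 10.9 CPM and knockout replicates 1 to 4 had 4.22, 4.32, 4.19 and 4.42 CPM. The 4 knockouts were nearly level, inside the spread of the controls, and the control mean was raised by replicate 4. The log2 fold change was −0.48 (SE 0.34, edgeR adjusted p 0.328), and −0.04 without control replicate 4 (adjusted p 0.930).

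The carriers of lactate and other organic acids were lower too. Slc5a8 encodes SMCT1, a sodium-coupled carrier of lactate, pyruvate and short-chain fatty acids (ENSMUSG00000020062, chromosome 10, 88885992 to 88929505, plus strand). It had 26.4, 8.53, 27.2 and 62.3 CPM in control replicates 1 to 4 and 0.253, 0.301, 3.08 and 0.576 CPM in knockout replicates 1 to 4. Knockout replicate 3 was well above the other knockouts and still below every control. The fall was −4.81 (SE 0.85, edgeR adjusted p 0.0153), the 24th lowest log2 fold change of the genes tested.

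Slc5a12 encodes SMCT2, the low-affinity sodium-coupled lactate carrier (ENSMUSG00000041644, chromosome 2, 110597298 to 110647779, plus strand). Control replicates 1 to 4 had 15.8, 6.35, 13.8 and 13.7 CPM and knockout replicates 1 to 4 had 0.887, 0.301, 3.74 and 1.22 CPM. The groups were separate, with 3 controls close together and replicate 2 lower. The change was −2.97 (SE 0.61, edgeR adjusted p 0.0205). Slc13a3 encodes NaDC3, a sodium-coupled carrier of succinate, citrate and other dicarboxylates on the basolateral side (ENSMUSG00000018459, chromosome 2, 165405028 to 165473230, minus strand). It had 13.4, 2.18, 4.24 and 16.3 CPM in control replicates 1 to 4 and 0.718, 0.402, 2.42 and 1.26 CPM in knockout replicates 1 to 4. This was the one called gene whose groups overlapped, at control replicate 2 and knockout replicate 3, and the change was −2.87 (SE 0.72, edgeR adjusted p 0.0330).

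The promoters of the genes at either end of this range are shown because their changes differed most. RefSeq promoter windows (build GRCm38.p6) were matched for 7 of the 10 genes, in 8 windows, since Slc5a10 has an alternative start. Slc5a2, Slc5a9 and Slc5a12 had no entry. The 250 bases before the start site are printed 5′ to 3′ on the strand of the gene, for Slc5a10 at chr11:61720800-61721049, for Slc5a8 at chr10:88885742-88885991 and for Slc2a5 at chr4:150119094-150119343. Capitals mark matches to a GC box (GGGCGG) on either strand, of which the window of Slc5a10 had none.
Slc5a10: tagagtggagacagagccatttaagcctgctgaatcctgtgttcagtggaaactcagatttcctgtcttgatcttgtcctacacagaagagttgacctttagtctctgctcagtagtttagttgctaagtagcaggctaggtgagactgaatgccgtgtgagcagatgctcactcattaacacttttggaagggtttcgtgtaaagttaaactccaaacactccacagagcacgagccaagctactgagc
Slc5a8: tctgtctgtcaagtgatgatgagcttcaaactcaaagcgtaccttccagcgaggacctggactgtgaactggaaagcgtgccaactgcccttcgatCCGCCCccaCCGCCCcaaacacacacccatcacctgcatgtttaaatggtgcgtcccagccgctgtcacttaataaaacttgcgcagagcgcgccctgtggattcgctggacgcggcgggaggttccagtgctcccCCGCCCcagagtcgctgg
Slc2a5: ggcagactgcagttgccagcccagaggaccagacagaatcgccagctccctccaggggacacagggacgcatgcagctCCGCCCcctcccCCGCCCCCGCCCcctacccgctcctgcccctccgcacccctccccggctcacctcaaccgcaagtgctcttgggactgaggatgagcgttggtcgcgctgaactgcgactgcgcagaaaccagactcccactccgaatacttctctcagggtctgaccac

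None of the 8 windows, both strands searched, held an exact match to a site of HNF4 (CAAAGTNCA) or to a TATA box (TATAAA). Of 32851 promoter windows of the same length, 1.19% held the HNF4 letters and 12.4% the TATA box. At 1.19%, no match in 8 windows was the likely outcome, and near matches were not searched. GC boxes, present in 32.7% of all windows, were found in Slc13a3, Slc2a5 and Slc5a8, so this feature was shared by a gene that fell strongly and the gene that was not called. The window of Slc5a8 held 17 CpG dinucleotides and that of Slc2a5 held 15, against a median of 6 over all windows. Both windows of Slc5a10 held 3. The GC content was 45.6% in its printed window and 51.2% in the other, against a median of 52.4%. These matches describe the letters in the window and do not show binding.

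Levels were compared between genes per kilobase of gene model (CPM per kilobase). In the controls the order of the means ran from Slc5a8 (5.84) through Slc5a10 (4.43), Slc2a2 (4.07), Slc5a1 (3.59), Slc5a12 (3.05), Slc5a2 (2.90), Slc2a5 (1.76), Slc13a3 (1.73) and Slc5a11 (1.36) to Slc5a9 (1.05). In the knockouts Slc2a5 came first at 1.26 CPM per kilobase, ahead of Slc2a2 at 0.789 and Slc5a1 at 0.658. Slc5a8 was eighth at 0.198, Slc5a10 ninth at 0.144 and Slc5a11 last at 0.143. Neighbours in either order had overlapping ranges across libraries in every case. Slc5a8 nevertheless exceeded Slc5a10 in 4 of 4 controls, while it did so in 2 of 4 knockouts.

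The libraries within a group moved together over the set. Control replicate 2 was the lowest control for 10 of the 10 genes, and control replicate 4 the highest for 8. Knockout replicate 3 was the highest knockout for 9 of the 10, and knockout replicate 2 the lowest for 7. The proximal tubule markers followed the same order at these libraries, with a summed level of 660 CPM for control replicate 2 against 2540 CPM for replicate 4, and of 491 CPM for knockout replicate 3 against 156 CPM for replicate 2. Of these 15 markers 13 were called lower, with a median log2 fold change of −2.88, close to the −2.87 of the transporters. The 15 were spread widely, from −5.86 for Miox to −0.15 for Cyp4b1. Of 3 early proximal markers tested 2 were called lower (median −2.75). Of 4 late proximal markers tested 2 were called lower and 1 higher (median −0.66). Over all genes tested 8.27% were called lower and 6.61% higher. Markers of several other kidney cells moved as well. Of the 5 thick ascending limb markers 3 were called lower (median −2.44), with a summed level of 202 to 987 CPM in controls and 10.2 to 276 CPM in knockouts. Of the 4 podocyte markers 2 were called lower (median −1.53), with sums of 184 to 410 CPM and 71.2 to 172 CPM. Of the 4 fibroblast markers 2 were called higher (median 0.62), with sums of 777 to 1286 CPM and 1112 to 1827 CPM. Of 3 distal convoluted markers tested 1 was called lower (median 0.22), and of 4 endothelial markers 1 (median −0.61). Of 4 collecting duct markers 1 was called higher (median −0.70), and of 4 intercalated cell markers none was called (median −1.45). Of 4 nephron progenitor markers 2 were called lower (median −0.63), and of 4 leukocyte markers 1 was called higher (median 0.16). The part of these cells in the transporter values was not tested.

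The transporter level was also set against Lrp2, the gene of the endocytic receptor megalin of the proximal tubule, in the same library. Slc5a1 amounted to 5.60%, 5.16%, 5.88% and 6.79% of the CPM of Lrp2 in control replicates 1 to 4 and to 5.06%, 8.04%, 5.28% and 4.39% in knockout replicates 1 to 4. The 2 groups overlapped, and the ratio varied far less than the level. For Slc2a2 the groups overlapped as well, at 7.64% to 12.1% in controls and 3.75% to 11.3% in knockouts. The ratio of Slc5a8 was 10.8%, 6.97%, 12.0% and 16.5% in control replicates 1 to 4 and 0.515%, 1.61%, 3.53% and 1.15% in knockout replicates 1 to 4. That of Slc5a10 was 2.16% to 5.31% in controls and 0.504% to 1.07% in knockouts. Slc5a8 and Slc5a10 were the 2 members whose ratio was lower in all knockouts than in all controls, which held for 0.400% of genes tested. For Slc5a9 and Slc2a5 the ratio was higher in all knockouts, as it was for 87.4% of genes tested.

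**Figure D2:**
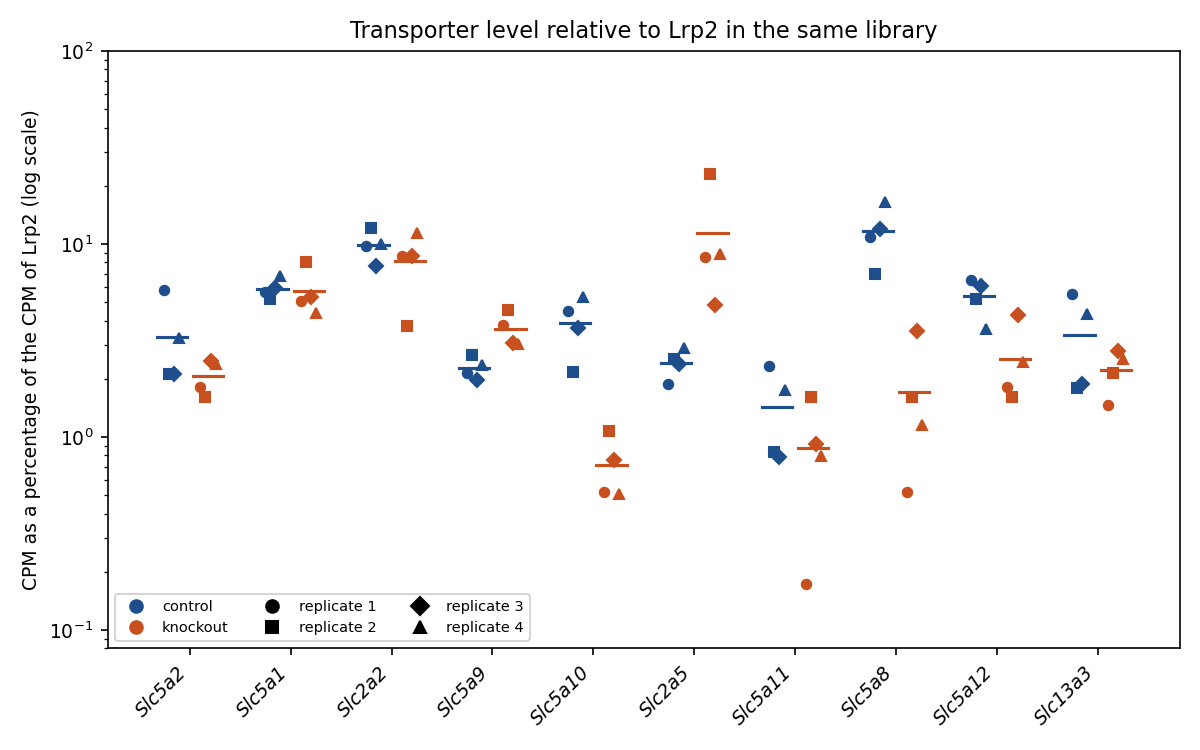
CPM of each transporter as a percentage of the CPM of Lrp2 in the same library (log axis), for controls (blue) and knockouts (orange), with the marker shape giving the replicate number and the bar the group mean. Slc5a1 stays between 4.39% and 8.04% in all 8 libraries, whereas Slc5a8 and Slc5a10 have every knockout below every control.

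The difference from the markers was tested by scaling each library in edgeR to the mean log2 level of the 15 proximal tubule markers in place of the library total. This scaling was chosen after the data were seen, and it moved the median log2 fold change of all genes to 2.96. On it Slc5a8 was still lower, by −2.23 (SE 0.79, adjusted p 0.00522), and so was Slc5a10, by −1.94 (SE 0.84, adjusted p 0.0218). Only 32 genes, 0.173% of those tested, were called lower on this scale, while 97.0% were called higher. Among the 15 markers themselves Miox (−3.03) and Slc22a6 (−1.94) were also called lower on it. Slc7a7 (2.48), Slc4a4 (2.41) and Cyp4b1 (2.55) were called higher, as most genes were. Of the late proximal markers Slc7a13 was called lower (−2.22), and Cyp7b1, Atp11a and Acy3 higher. Slc5a8 kept the call when Lrp2 or Cubn alone set the scale, at −2.73 and −1.95. Slc5a10 kept it with Lrp2, at −2.50, and lost it with Cubn, at −1.53 (adjusted p 0.0841), and also without knockout replicate 1 (adjusted p 0.0685) or knockout replicate 4 (0.0806).

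Another 7 of the 10 genes were not called on this scale. Their log2 differences were −0.07 for Slc5a2, 0.50 for Slc5a1, 0.25 for Slc2a2, 1.20 for Slc5a9, −0.21 for Slc5a11, −0.54 for Slc5a12 and 0.01 for Slc13a3. Standard errors were 0.73 to 0.81, and a difference as large as the 1.20 of Slc5a9 (adjusted p 0.127) was not called. Against Lrp2 alone the sign of Slc5a1 (−0.04), Slc2a2 (−0.26) and Slc13a3 (−0.58) was negative, and against Cubn alone that of Slc5a2 (0.33) and Slc5a11 (0.06) was positive. Slc5a9 was called higher with Cubn alone (1.69, adjusted p 0.0444), which was below the median of 3.38 over all genes tested on that scale. Slc2a5 was higher than the markers by 2.76 (SE 0.79, adjusted p 5.75e-04), as were 97.0% of genes tested.

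**Figure D3:**
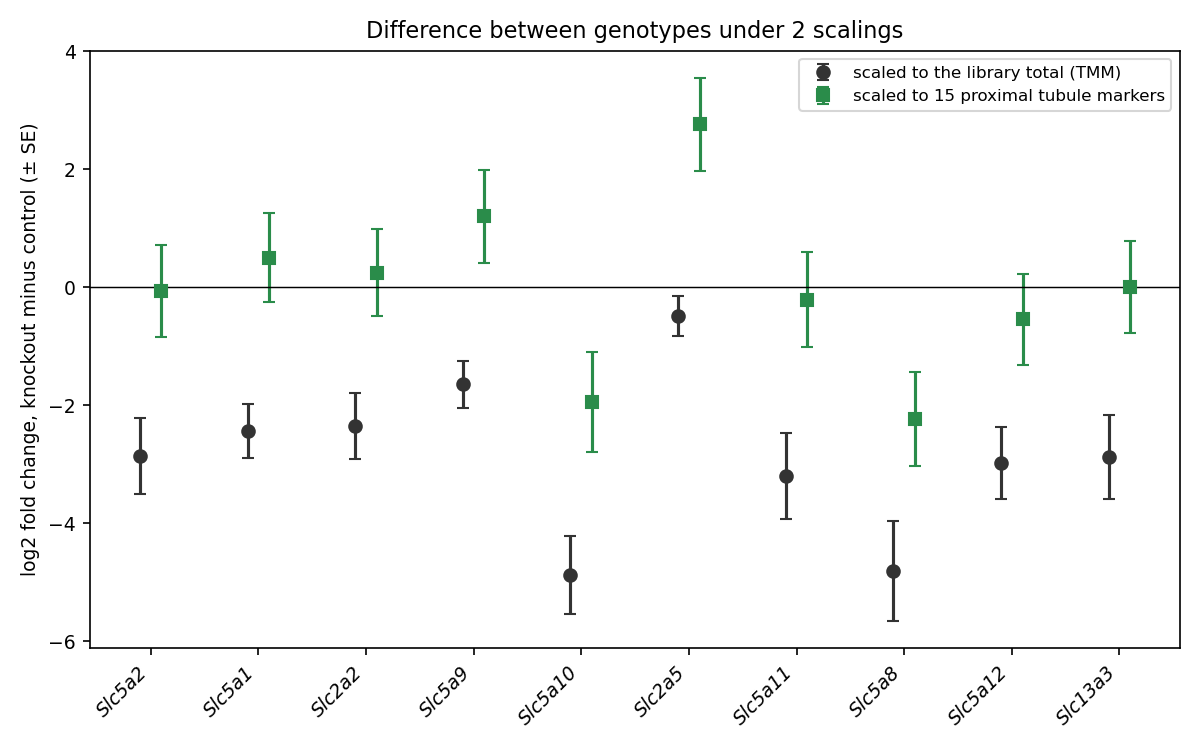
Log2 fold change, knockout minus control, of each transporter gene with its standard error, from edgeR with libraries scaled to their total (black circles) and to 15 proximal tubule markers (green squares). The green points of 7 genes lie between −0.54 and 1.20, those of Slc5a8 at −2.23 and Slc5a10 at −1.94 lie lower, and that of Slc2a5 at 2.76 lies higher.

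Genes with the most similar pattern were sought by the root-mean-square distance, over the 8 libraries, between centred log2 CPM and the median profile of the 10 transporters. Among 13978 candidates the nearest were Pklr (distance 0.205), Gatm (0.275), Kcnj15 (0.285), Tinag (0.302) and Slc47a1 (0.307). Pklr encodes the pyruvate kinase of liver, kidney and red cells, Gatm the first enzyme of creatine synthesis, Kcnj15 a potassium channel, Tinag a basement membrane protein of tubules and Slc47a1 the organic cation exporter MATE1. Pklr had 8.64, 2.92, 4.44 and 10.6 CPM in control replicates 1 to 4 and 0.971, 0.301, 2.15 and 0.971 CPM in knockout replicates 1 to 4. Of the transporters, Slc5a2 lay nearest to the median profile (0.130) and Slc2a5 farthest (1.43), followed by Slc5a8 (1.34). The profile is the median of these same genes, so their nearness to it is partly built in. Of the candidates, 0 were closer to it than Slc5a2, 1396 closer than Slc5a8 and 2188 closer than Slc2a5.

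Around these 10 genes, a list of 44 related transporters, accessory proteins and regulators was described, of which 40 were tested. In the knockout 17 were called lower and 4 higher, against 8.27% and 6.61% of all genes tested, and the median log2 fold change was −0.56 against 0.0044 over all genes. Pdzk1, a scaffold protein of the brush border, changed by −3.14 (SE 0.72, edgeR adjusted p 0.0264). Pdzk1ip1, whose product MAP17 is required for SGLT2 activity, was at 67.8 to 250 CPM in controls and 21.5 to 103 CPM in knockouts. It missed the threshold (−1.71, SE 0.51, adjusted p 0.0522), and its groups overlapped.

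The transcription factor gene Hnf4a, whose product drives many proximal tubule genes, was lower. It was at 63.6 to 163 CPM in controls and 3.31 to 35.2 CPM in knockouts, a change of −2.26 (SE 0.57, edgeR adjusted p 0.0336). Fxyd2, the gamma subunit of Na,K-ATPase, fell from 391 ± 191 to 47.6 ± 49.4 CPM (SD, n = 4 each), by −3.03 (SE 0.76, adjusted p 0.0330).

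Some other carriers for organic acids and anions fell with the set, and those named here were picked for their large falls. Of the same families, Slc13a4, Slc13a5, Slc16a4, Slc16a7, Slc16a9 and Slc16a10 were among those not called. Slc13a1, the sodium sulfate cotransporter gene, changed by −3.18 (SE 0.56, edgeR adjusted p 0.0153). Slc13a2, the brush border citrate and succinate carrier gene, changed by −2.55 (SE 0.46, adjusted p 0.0164), and Slc16a12, a creatine carrier gene, by −2.48 (SE 0.59, adjusted p 0.0290). The more widely expressed sugar carriers moved less. Slc2a1, which encodes GLUT1, was at 65.9 to 140 CPM in controls and 37.3 to 66.4 CPM in knockouts (−0.93, SE 0.24, adjusted p 0.0347). Slc5a3, the inositol carrier of cells under osmotic stress, was at 45.8 to 131 CPM in controls and 30.4 to 43.4 CPM in knockouts (−1.10, SE 0.28, adjusted p 0.0342).

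The share called higher, 4 of 40, was near the 6.61% of all genes, and the carriers named here are described only by their own values. Slc16a3, which encodes the lactate exporter MCT4, had 13.1, 11.5, 13.0 and 11.3 CPM in control replicates 1 to 4 and 25.6, 16.9, 17.9 and 22.6 CPM in knockout replicates 1 to 4. All knockouts were above all controls, and the rise was 0.76 (SE 0.15, edgeR adjusted p 0.0188). Slc2a13, a proton-coupled inositol carrier gene, rose by 0.63 (SE 0.14, adjusted p 0.0269), and Slc2a3, which encodes GLUT3, by 0.52 (SE 0.14, adjusted p 0.0362). Slc16a1, which encodes the lactate carrier MCT1, was not called (0.29, SE 0.12, adjusted p 0.134).

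How many of the 10 genes passed the threshold depended on single libraries, although every log2 fold change kept its sign in every fit scaled to the library total. All 9 calls held without control replicate 2, without knockout replicate 3 and without both, where 22.2% of genes tested were called lower. In all the called genes these were the lowest control and the highest knockout. Leaving them out widened each difference, so these 3 fits could not test the calls. The fit without both was not planned beforehand. Of all genes tested, 19.0% were called lower without control replicate 2 and 9.30% without knockout replicate 3. The number of transporter genes was 3 without control replicate 1 (1.28% of all genes), 2 without control replicate 3 (0.928%) and 3 without control replicate 4 (1.83%). It was 2 without knockout replicate 1 (1.12% of all genes), 5 without knockout replicate 2 (1.47%) and 1 without knockout replicate 4 (0.230%). Slc5a10 was called in 8 of these 8 fits, Slc5a8 in 7, Slc5a1 in 5, and the other 6 called genes in 2 or 3. Adjusting for Y-linked transcripts left 7 genes called lower (5.57% of genes tested), as did adjusting for adrenal transcripts (4.07%), and 5 were called in the 5 libraries with Y-linked transcripts alone (7.84%).

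**Figure D4:**
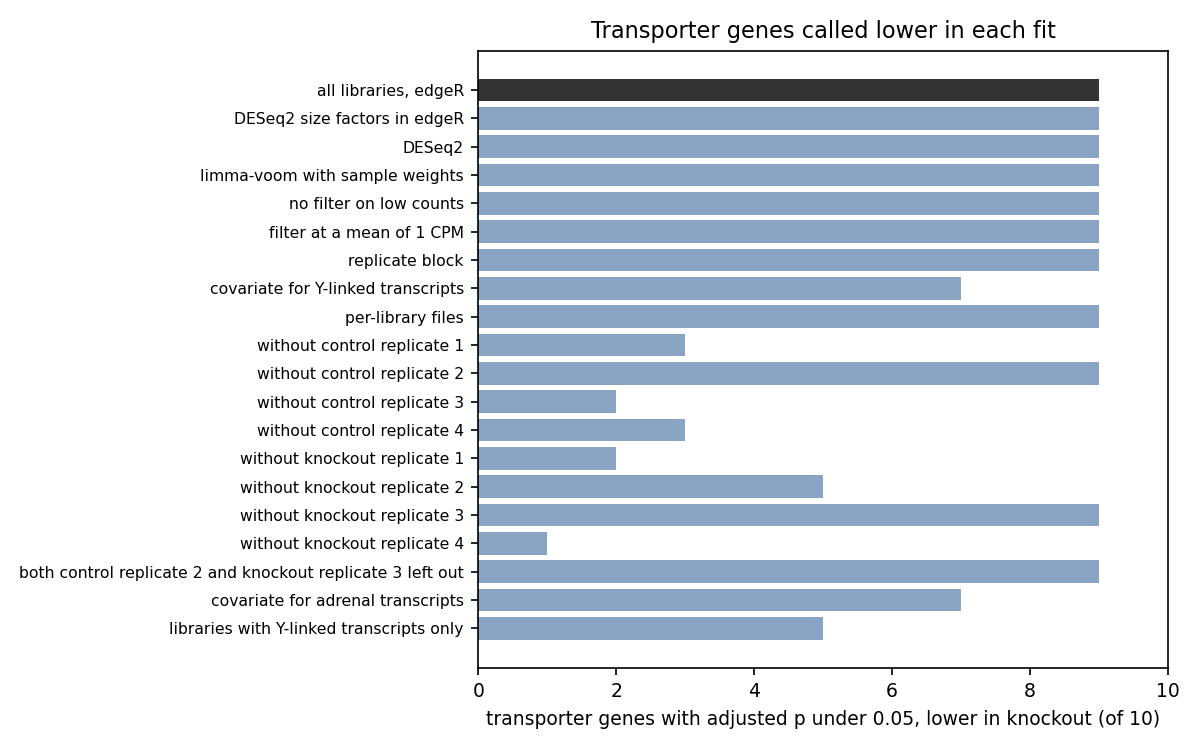
Number of the 10 transporter genes called lower in the knockout (adjusted p under 0.05) in the fit of all libraries with edgeR (black) and in each alternative fit (blue). The number is 9 with every tool and filter tried, 7 with either covariate and 5 in the libraries with Y-linked transcripts. It falls to 1 to 5 when any library other than control replicate 2 or knockout replicate 3 is left out. Over all genes tested, calls in either direction number 2751 with edgeR, 4506 with DESeq2 and 8302 with limma-voom.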

How the data were processed

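The authors' deposited values are raw counts per gene, whole numbers without normalization per the file headers, for 8 libraries, with the exon coordinates and summed exon length of each gene. The submitters' processing notes name Trimmomatic 0.36, STAR 2.5.2b, featureCounts of Subread 1.5.2, DESeq2 and the build GRCm38, without settings for strand or multiply mapped reads. The table of the whole series was used, and 0 cells differed from the files per library. Symbols were paired with 48970 of 49315 IDs.

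The main comparison of genotypes was the quasi-likelihood test of edgeR 4.0.16 (R 4.3.3) with TMM scaling, the default filterByExpr filter and genotype as the only term. Benjamini-Hochberg adjustment covered every tested gene, and a gene with adjusted p below 0.05 is termed called. The standard error is the log2 fold change divided by the root of F. CPM uses TMM library sizes. The fit was tested on simulated counts with the same dispersion for every gene and no difference in tissue make-up. That setting is simpler than these data and gives no error rate for them. Alternatives were DESeq2 1.42.0, limma-voom (limma 3.58.1), other scalings and filters, a replicate block, covariates, and leaving out libraries. No pair of libraries was alike within sampling noise (chi-square per degree of freedom 11.0 to 93.1).

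The 10 genes and all lists were chosen with earlier results of these data known. Named beside them are 7 related genes whatever their values, and up to 5 called related genes with the largest change in each direction; some of these are not reported here. Nearest patterns were sought among protein-coding genes of at least 1 CPM on average, with predicted genes and Y-linked genes passed over, and log2 CPM used a prior count of 2. Of the 10 genes, those sharing 50-base windows with transcripts of other genes were Slc5a2 (15.8% of windows), Slc5a10 (10.7%) and Slc5a12 (0.434%, with Gm4117).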

Additional observations from a re-analysis of the deposited data

Results flagged for a closer look

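In the knockout group, the highest library stood far from the other 3 for 2 of the 10 genes. Slc5a8 was at 3.08 CPM in knockout replicate 3, against 0.253 to 0.576 CPM in the other knockouts. Slc5a10 was at 0.657 CPM in the same library, against 0.201 to 0.253 CPM. In both genes this library was also below every control, and it had the highest level of the proximal tubule markers among the knockouts, whose part in these values was not tested. Chance alone marks about 1 in 20 independent groups of this size in this way. The 20 groups examined were not independent, since the libraries moved together over the set.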

How the results depend on the processing

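The 9 calls held with DESeq2, limma-voom, DESeq2 size factors in edgeR, both other filters and the files per library. DESeq2 and limma-voom also called more of all genes than the main fit, so the same 9 calls stand against a larger background there. With 8 libraries, low counts limit the knockout values of Slc5a10 and Slc5a11 most. Leaving out 1 library gave 1 to 9 transporter genes called lower, 153 to 7084 calls over all genes and 0 to 29 calls among the 44 related genes, against 9, 2751 and 21 with all libraries. Over all genes, calls in either direction numbered 4506 with DESeq2 and 8302 with limma-voom. They numbered 7903 without control replicate 2 and knockout replicate 3, and 1394 with the adrenal covariate. The 5 libraries with Y-linked transcripts gave 5 transporter calls and 13 related calls, and the adrenal covariate gave 9 related calls. The cause of these shifts was not tested.

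Log2 fold changes that lost their call were Slc5a2 with the adrenal covariate (−2.89), Slc13a3 with it (−2.92), Slc5a9 and Slc13a3 with the Y-linked covariate (−1.51 and −2.38), and Slc5a9, Slc5a12, Slc2a2 and Slc13a3 in the libraries with Y-linked transcripts (−1.76, −2.76, −2.61 and −2.92). When 1 library was left out the log2 fold change ran from −2.80 to −2.04 for Slc5a1, −3.34 to −2.48 for Slc5a2, −6.28 to −4.24 for Slc5a8, −1.92 to −1.32 for Slc5a9, −5.41 to −4.37 for Slc5a10, −3.79 to −2.79 for Slc5a11, −3.88 to −2.66 for Slc5a12, −2.68 to −2.01 for Slc2a2, −0.70 to −0.04 for Slc2a5 and −3.44 to −2.43 for Slc13a3. The fits with 3 libraries in a group had highest adjusted p values of 0.0476 for Slc5a10 and 0.0609 to 0.0964 for the other 8 called genes.

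Relative to the proximal tubule markers, the uncalled genes changed sign with Lrp2 alone for Slc5a1 (−0.037), Slc2a2 (−0.26) and Slc13a3 (−0.58) and with Cubn alone for Slc5a2 (0.33) and Slc5a11 (0.055). Without 1 library these differences ran from −0.18 to 0.22 for Slc5a2, −0.60 to 0.15 for Slc5a11 and −0.16 to 0.24 for Slc13a3. Each of these differences was smaller than the standard error of its own fit.

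The labels do not say whether equal replicate numbers mark pairs. Deviations from the group means of same-numbered libraries correlated at −0.11, 0.33, 0.23 and −0.06 for numbers 1 to 4. Control replicates 2 and 3 were most like the knockout of their own number. Control replicates 1 and 4 were most like knockout replicate 3 (0.10 and 0.40). These correlations cannot settle pairing. With the replicate number as a block, 9 transporter genes, 21 related genes and 3229 genes in all were called, and no transporter call changed.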
